A study of Mus musculus with 14 samples.

Results

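The 39 genes described here encode the sensors, transcription factors and chaperones of the unfolded protein, integrated stress and heat shock responses. They were chosen by symbol, and all 39 were found in both deposited tables of normalized counts, which together hold 15036 genes. By role, 11 belong to the ATF4 branch, 3 are the ATF6 and IRE1 sensors with XBP1, 11 are chaperones and degradation factors of the endoplasmic reticulum (ER), 12 are cytosolic chaperones with HSF1, and 2 form the mitochondrial chaperonin.

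In the integrated stress response, kinases such as PERK and GCN2 phosphorylate the translation factor eIF2alpha, which slows protein synthesis while allowing translation of ATF4, an activator of amino acid and redox genes. In the unfolded protein response, ATF6 and the IRE1-XBP1 pathway raise the folding and degradation capacity of the ER. HSF1 drives the cytosolic chaperones HSP70 and HSP90, and activated T cells, which begin rapid protein synthesis, are known to use all of these pathways.

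RNA came from splenic CD8 T cells of C57BL/6 mice, sorted as naive cells by high CD62L and low CD44, then held for 6 h on plate-bound anti-CD3 at 1 µg/mL with soluble anti-CD28 at 1 µg/mL. Morrbid-/- cells, mutant for a long noncoding RNA gene, were set against wild-type cells. Without IFN-beta there were 3 libraries labelled Morrbid-/- and 3 labelled wild type, and with IFN-beta at 20 ng/mL, a type I interferon, there were 4 of each. All groups received the anti-CD3 and anti-CD28 antibodies, so unstimulated cells were not part of any comparison. The labels give no age, no description of the allele and no word on whether libraries came from separate animals, so p-values measure only the spread between these libraries, which may be technical.

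Libraries held 1747634 to 2963149 reads without IFN-beta and 5788070 to 7355337 reads with it. All 6 CD8 T cell markers were detected in each library, while B cell, myeloid and erythroid markers each summed to at most 5.32 RPM (reads scaled by the library total). Those sums rest on few genes, namely 3 of 6 B cell, 4 of 7 myeloid and 2 of 6 erythroid markers without IFN-beta, and 2 of 6, 2 of 7 and 0 of 6 with it, the others not being analysed here. Without IFN-beta, Morrbid itself (listed as Gm14005) had 7.10, 5.24 and 7.16 normalized counts in libraries labelled Morrbid-/-, against 1.79, 4.16 and 1.53 in those labelled wild type. This direction is opposite to a loss of Morrbid RNA, but it rests on a few reads and was not tested. The labels do not describe the allele, so whether such reads are to be expected is not known. Morrbid-/- and wild type below stand for the libraries labelled so, and every direction rests on those labels. With IFN-beta, Morrbid was not analysed here.

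Without IFN-beta, 0 of the 32 members tested passed (limma, adjusted p under 0.05), where 0.635% of all 9290 genes tested passed (0.538% higher and 0.0969% lower). The edgeR and DESeq2 tests on recovered reads also called 0 members, and 2 members, Ddit3 and Dnajb9, had an unadjusted p under 0.05. The members' median log2 difference, Morrbid-/- minus wild type, was 0.0007, against -0.006 over all genes tested, with 16 members above 0 and 16 below. With IFN-beta, 3 of 34 members tested rose and 1 fell, a share of 11.8%, where 10.1% of all 9964 genes tested passed. Over all genes 5.25% rose and 4.84% fell, so the share of members that passed was near the background and is not a result about the members as a group. With IFN-beta, depth also separated the genotypes, at 7132515 to 7355337 reads in Morrbid-/- and 5788070 to 6918633 in wild type, and so, apart from 1 wild-type library, did the share of mitochondrial 12S rRNA, at 0.214% to 0.462% of reads in Morrbid-/- and 0.142% to 0.256% in wild type. The part of either in the calls was not tested. The median log2 difference of the members with IFN-beta was 0.089, against 0.0015 over all genes, with 21 members above 0 and 13 below. When libraries were scaled to equal totals instead of by the authors' size factors, 730 genes rose and 344 fell with IFN-beta, against 523 and 482, and 4 members rose while 1 fell. In bulk RNA, fewer cells that express a gene and less of its RNA per cell cannot be told apart.

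**Figure D1:**
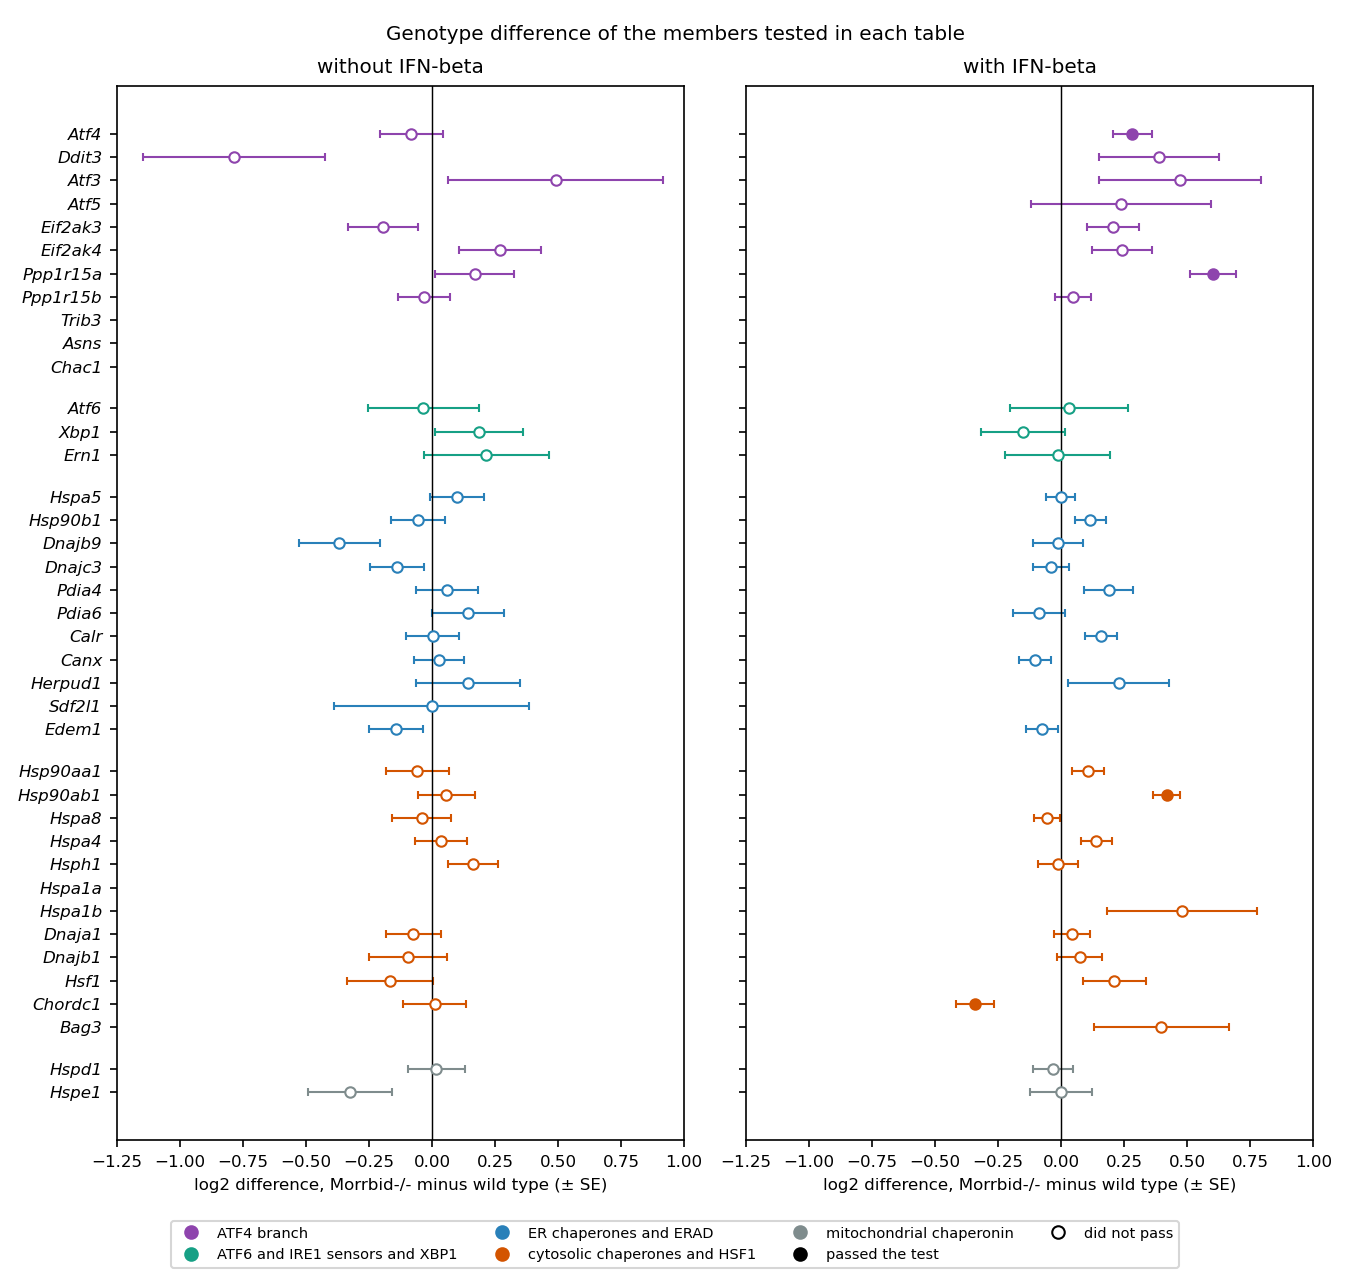
Log2 difference, Morrbid-/- minus wild type, with its standard error (SE), for each member tested without IFN-beta (left) and with IFN-beta (right), coloured by role. Filled points passed the test: 0 of 32 without IFN-beta, and with it Atf4, Ppp1r15a and Hsp90ab1 above 0 and Chordc1 below 0. Rows with no point did not reach a mean of 10 normalized counts.

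In the ATF4 branch, Atf4 and Ppp1r15a rose in libraries labelled Morrbid-/- with IFN-beta. All 8 branch members tested there lay above 0, with a median log2 difference of 0.26. Over all genes in that setting 5.25% rose, 10.1% passed in either direction and the median was 0.0015. Whether the branch stands apart from other genes was not tested. In the same setting 0 genes passed in the lists of further ATF4 targets described below. Medians of those lists were -0.080 for amino acid synthesis and transport, 0.0049 for aminoacyl-tRNA synthetases and 0.093 for regulators. Without IFN-beta, 3 of the 7 branch members tested lay above 0 and 4 below, with a median of -0.03. Ppp1r15a encodes GADD34, the inducible phosphatase subunit that removes the phosphate from eIF2alpha and so restores translation.

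With IFN-beta, Ppp1r15a had 414, 470.2, 370.2 and 473 normalized counts in libraries labelled Morrbid-/-, against 299.7, 287, 294 and 254 in those labelled wild type. The lowest library labelled Morrbid-/- lay above the highest labelled wild type, so the groups did not overlap. Means were 432 ± 49.4 in Morrbid-/- and 284 ± 20.6 in wild type (SD, n = 4 each), and the log2 difference was 0.60, with an SE of 0.09 (adjusted p = 9.1e-05 by limma). Without IFN-beta, Ppp1r15a had 135, 140.1 and 119.7 normalized counts in libraries labelled Morrbid-/-, against 138, 87.4 and 131 in those labelled wild type. There the groups overlapped, with one low library in wild type, and the log2 difference was 0.17 (SE 0.16, limma adjusted p = 0.943). The annotated spans of Ppp1r15a and Tulp2 overlap by 730 bases, and how such reads were counted is not given in the sources used here.

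The region around the start of Ppp1r15a is shown because this member had the largest log2 difference of those that passed. It runs from 250 bases before the start to 50 after it (RefSeq, GRCm38.p6, chr7:45526219-45526518, minus strand), and the capitals mark a cyclic AMP response element, TGACGTCA, which ATF and CREB family proteins can bind.
Ppp1r15a: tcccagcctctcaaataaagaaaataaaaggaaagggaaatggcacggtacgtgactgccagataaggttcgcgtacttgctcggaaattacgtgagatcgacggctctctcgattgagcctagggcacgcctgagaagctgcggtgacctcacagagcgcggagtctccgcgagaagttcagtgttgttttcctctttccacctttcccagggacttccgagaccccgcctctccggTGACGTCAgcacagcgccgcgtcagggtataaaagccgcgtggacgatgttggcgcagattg
Such regions were on hand for 33 of the 39 members, and both strands were searched. That element was in 1 of the 33 members and in 2.03% of 27025 genes. A C/EBP-ATF response element, TGATGNAA, was found in Atf3, Trib3, Asns, Chac1 and Herpud1, 5 of the 33, and in 4.51% of genes. A match describes the letters only and is no evidence of binding in these cells.

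Atf4, the transcription factor of the branch, had 499, 514, 487 and 469.8 normalized counts with IFN-beta in libraries labelled Morrbid-/-, against 440.1, 399, 368 and 415 in those labelled wild type. The groups did not overlap. Means were 493 ± 18.8 in Morrbid-/- and 406 ± 30.3 in wild type (SD, n = 4 each), and the log2 difference was 0.28, with an SE of 0.08 (adjusted p = 0.0196 by limma). This call was lost when any of 3 libraries was left out, with adjusted p-values of 0.0779 without Morrbid-/- replicate 2, 0.0515 without wild-type replicate 2 and 0.0644 without wild-type replicate 3. Without IFN-beta, Atf4 had 393, 367 and 348 normalized counts in libraries labelled Morrbid-/-, against 501, 331 and 359 in those labelled wild type. The groups overlapped, wild-type replicate 1 stood above all others, and the log2 difference was -0.08 (SE 0.12, limma adjusted p = 0.964). ATF4 is controlled largely at translation, which these RNA counts do not measure.

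Ddit3 encodes CHOP, a transcription factor that promotes cell death when ER stress lasts. Without IFN-beta it had 15.2, 6.55 and 9.21 normalized counts in libraries labelled Morrbid-/-, against 20.6, 15.6 and 16.8 in those labelled wild type. These groups did not overlap, but the values rest on 29 reads in Morrbid-/- and 60 in wild type, and the log2 difference of -0.78 did not pass (SE 0.36, limma adjusted p = 0.778). With IFN-beta, Ddit3 had 30.2, 27.5, 29.7 and 31.9 normalized counts in Morrbid-/-, against 34.2, 17.4, 21.0 and 20.5 in wild type. Here wild-type replicate 1 was the highest of all, the groups overlapped, and the log2 difference was 0.39 (SE 0.24, limma adjusted p = 0.343).

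The eIF2alpha kinases did not pass in either setting. Eif2ak3, which encodes PERK, the kinase of the ER membrane, averaged 203 ± 12.5 normalized counts in Morrbid-/- and 177 ± 19.5 in wild type with IFN-beta, a log2 difference of 0.21. Without IFN-beta its means were 154 ± 12.01 in Morrbid-/- and 179 ± 40.0 in wild type. Eif2ak4, which encodes GCN2, the kinase that senses uncharged tRNA, averaged 155 ± 4.58 in Morrbid-/- and 132 ± 22.3 in wild type with IFN-beta, a log2 difference of 0.24. Its means without IFN-beta were 89.0 ± 9.66 in Morrbid-/- and 73.9 ± 10.4 in wild type. For both kinases n = 4 per group with IFN-beta and n = 3 without, and adjusted p-values (limma) with IFN-beta were 0.223 for Eif2ak3 and 0.218 for Eif2ak4.

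Ppp1r15b, the constitutive counterpart of GADD34, averaged 988 ± 53.0 normalized counts in Morrbid-/- and 959 ± 85.9 in wild type with IFN-beta (SD, n = 4 each), a log2 difference of 0.05. Without IFN-beta its means were 408 ± 26.2 in Morrbid-/- and 417 ± 34.6 in wild type (SD, n = 3 each). Atf3, a transcription factor induced by stress, averaged 23.3 ± 9.04 in Morrbid-/- and 16.8 ± 7.35 in wild type with IFN-beta, and 13.8 ± 3.89 in Morrbid-/- and 10.6 ± 6.41 in wild type without it. Its groups overlapped in both settings. Atf5, a related factor linked to mitochondrial stress, averaged 12.5 ± 2.24 in Morrbid-/- and 11.0 ± 4.58 in wild type with IFN-beta, and 6.88 ± 3.27 in Morrbid-/- and 6.52 ± 3.20 in wild type without it, where it was too low to test.

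The ATF4 targets Trib3, Asns and Chac1 were near the detection limit. Trib3, a pseudokinase that dampens the response, had 7, 3 and 3 reads in libraries labelled Morrbid-/- without IFN-beta, against 12, 13 and 12 in those labelled wild type. The groups did not overlap, but the mean of 7.92 normalized counts was under the minimum of 10. With no such minimum, its log2 difference without IFN-beta was -1.14 (SE 0.46, limma adjusted p = 0.673). With IFN-beta, Trib3 had 6 reads in all in Morrbid-/- and 11 in wild type. Asns, the asparagine synthetase, had 0 reads in all 3 libraries labelled Morrbid-/- without IFN-beta, against 1, 1 and 4 reads in those labelled wild type, and with IFN-beta it had 2 reads in all in Morrbid-/- and 1 in wild type. A count of 0 in a library allows up to 3 reads, which is 1.23 to 1.72 RPM in Morrbid-/- and 1.01 to 1.27 RPM in wild type, by counting error only. Chac1, which degrades glutathione, had 1 read in all 6 libraries without IFN-beta, from Morrbid-/- replicate 2, and 0 reads in all 8 libraries with it, which allows up to 0.408 to 0.421 RPM in Morrbid-/- and 0.434 to 0.518 RPM in wild type.

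**Figure D2:**
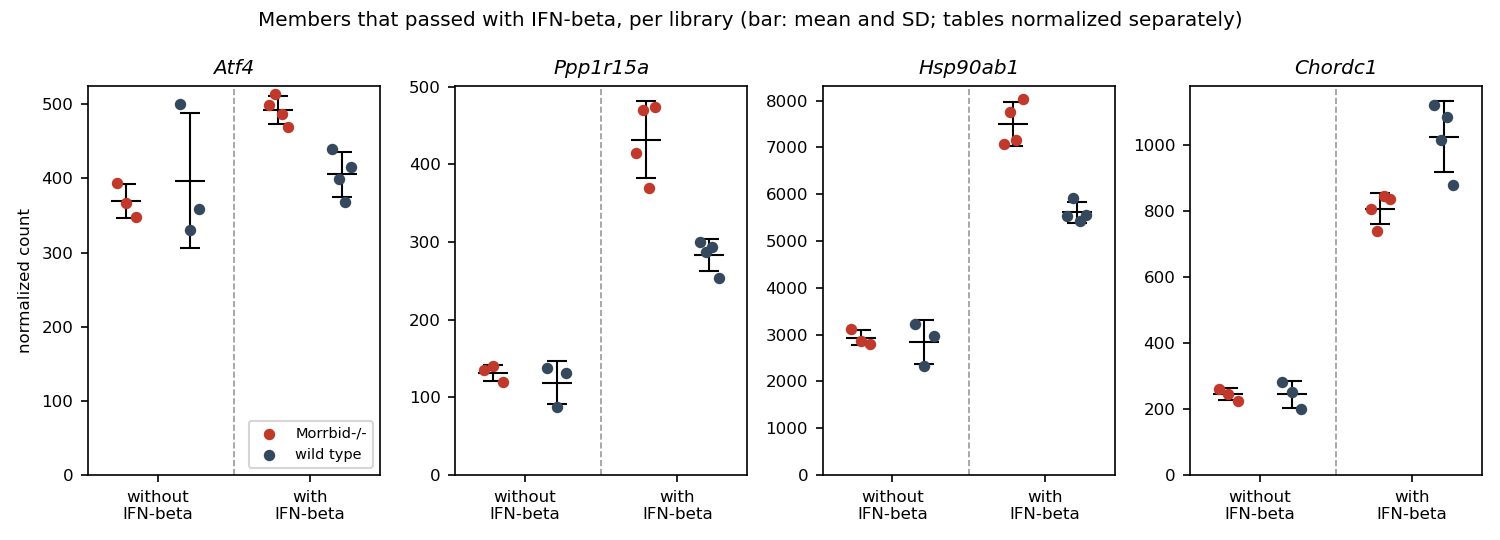
Normalized counts per library of the 4 members that passed with IFN-beta, with the mean and SD of each group. Left of the dashed line, without IFN-beta, the groups overlap for each gene. Right of it, with IFN-beta, libraries labelled Morrbid-/- lie above those labelled wild type for Atf4, Ppp1r15a and Hsp90ab1 and below them for Chordc1. The tables were normalized separately, so levels are not to be compared across the line.

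The sensors of the other branches and Xbp1 did not pass in either setting. Xbp1, the transcription factor that IRE1 activates by splicing its RNA, had 64.9, 78.6 and 62.4 normalized counts in libraries labelled Morrbid-/- without IFN-beta, against 55.4, 58.3 and 66.5 in those labelled wild type. With IFN-beta, Xbp1 had 79.7, 71.5, 69.2 and 48.3 normalized counts in Morrbid-/-, against 68.4, 73.7, 65.4 and 88.9 in wild type. The groups overlapped both times, with log2 differences of 0.19 (SE 0.17) without IFN-beta and -0.15 (SE 0.17) with it. Counts per gene do not separate spliced from unspliced Xbp1 RNA.

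Ern1, which encodes IRE1alpha, averaged 30.6 ± 2.05 normalized counts in Morrbid-/- and 26.5 ± 5.03 in wild type without IFN-beta, and 38.7 ± 8.36 in Morrbid-/- and 38.9 ± 7.39 in wild type with it. Atf6, which is cut in the Golgi to release its transcription factor, averaged 35.8 ± 4.96 in Morrbid-/- and 36.5 ± 1.05 in wild type without IFN-beta, and 40.1 ± 4.10 in Morrbid-/- and 41.7 ± 17.96 in wild type with it. The wide SD of Atf6 in wild type with IFN-beta came from replicate 2, at 65.5 normalized counts, where the other wild-type libraries held 27.3 to 45.5. By the edgeR test on recovered reads, the sign of the Atf6 difference with IFN-beta turned, at -0.06 against 0.03.

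Among the ER chaperones and degradation factors, 0 of 11 members tested passed without IFN-beta, where 0.635% of all genes passed. With IFN-beta 0 of 10 passed, where 10.1% of all genes did. The median log2 difference of these members was 0.003 without IFN-beta and -0.009 with it, each close to the median of all genes. At an unadjusted p under 0.05 stood 1 member in each setting, Dnajb9 without IFN-beta and Calr with it, and the edgeR and DESeq2 tests also called 0 of these members in both settings.

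Hspa5 encodes BiP, the HSP70 of the ER lumen and the usual readout of the unfolded protein response. Without IFN-beta it had 1689, 1497 and 1382.5 normalized counts in libraries labelled Morrbid-/-, against 1651, 1276 and 1349 in those labelled wild type. With IFN-beta, Hspa5 had 6301, 6028, 6096 and 6543 normalized counts in Morrbid-/-, against 6899, 6143, 5671 and 6360.5 in wild type. The groups overlapped in both settings, with log2 differences of 0.10 (SE 0.11, limma adjusted p = 0.955) without IFN-beta and -0.003 (SE 0.06, limma adjusted p = 0.983) with it. The annotated spans of Hspa5 and Rabepk overlap by 1921 bases.

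Start regions of Hspa5 and Hsp90b1 are shown because they carry, in capitals, the ER stress response element (CCAAT and CCACG on one strand, with 9 bases of any kind between them; both strands were searched), that ATF6 with NF-Y is known to bind. They run from 250 bases before each start to 50 after it in RefSeq's GRCm38.p6, at chr2:34771840-34772139 on the plus strand for Hspa5 and at chr10:86705395-86705694 on the minus strand for Hsp90b1, which holds 2 copies.
Hspa5: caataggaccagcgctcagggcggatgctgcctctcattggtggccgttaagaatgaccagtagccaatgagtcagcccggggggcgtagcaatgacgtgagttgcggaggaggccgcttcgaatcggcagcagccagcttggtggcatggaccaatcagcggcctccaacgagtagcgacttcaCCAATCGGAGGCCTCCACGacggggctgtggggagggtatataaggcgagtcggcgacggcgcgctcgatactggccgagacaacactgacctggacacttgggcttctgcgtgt
Hsp90b1: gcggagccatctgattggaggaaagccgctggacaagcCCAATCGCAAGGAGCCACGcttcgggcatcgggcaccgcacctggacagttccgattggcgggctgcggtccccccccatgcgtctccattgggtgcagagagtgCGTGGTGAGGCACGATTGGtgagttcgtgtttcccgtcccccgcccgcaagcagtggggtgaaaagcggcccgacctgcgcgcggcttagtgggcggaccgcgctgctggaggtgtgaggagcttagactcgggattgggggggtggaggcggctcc
The element was found in 6 of the 33 members with a region on hand, namely Hspa5, Hsp90b1, Dnajc3, Pdia6, Calr and Canx, and in 0.137% of 27025 genes. All 6 are ER chaperones or folding factors, and 0 of the 6 passed in either setting. Over all genes 0.635% passed without IFN-beta and 10.1% with it, so 0 of 6 is no result about the element.

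Hsp90b1, which encodes the ER form of HSP90, averaged 3810.2 ± 187 normalized counts in Morrbid-/- and 3523 ± 295 in wild type with IFN-beta, and 2030.2 ± 230.0 in Morrbid-/- and 2106 ± 206 in wild type without it. Calreticulin (Calr) and calnexin (Canx) hold newly made glycoproteins in the ER until they fold. Calr had 4523, 4489, 4736 and 5667 normalized counts in libraries labelled Morrbid-/- with IFN-beta, against 4256, 4395, 4354.5 and 4337 in those labelled wild type. These groups did not overlap, with Morrbid-/- replicate 4 the highest, and the log2 difference of 0.16 did not pass (SE 0.06, limma adjusted p = 0.122). Calr did pass with libraries scaled to equal totals, at a log2 difference of 0.20. Canx averaged 1420.2 ± 66.8 in Morrbid-/- and 1528 ± 122 in wild type with IFN-beta, a log2 difference of -0.10 that did not pass, and 942 ± 62.9 in Morrbid-/- and 926 ± 97.7 in wild type without it.

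Dnajb9 encodes ERdj4, a BiP cochaperone and a known XBP1 target. Without IFN-beta it averaged 105 ± 14.4 normalized counts in Morrbid-/- and 137 ± 31.7 in wild type (SD, n = 3 each), and the log2 difference was -0.37, with an SE of 0.16 (adjusted p = 0.767 by limma) with overlapping groups. With IFN-beta its means were 222 ± 20.6 in Morrbid-/- and 225 ± 20.7 in wild type (SD, n = 4 each). Dnajc3, a BiP cochaperone that also inhibits PERK, averaged 641 ± 26.8 in Morrbid-/- and 661 ± 49.8 in wild type with IFN-beta, and 274 ± 25.8 in Morrbid-/- and 301 ± 2.44 in wild type without it.

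The disulfide isomerases Pdia4 and Pdia6 did not pass. Pdia4 averaged 333 ± 39.4 normalized counts in Morrbid-/- and 292 ± 29.7 in wild type with IFN-beta, and 231 ± 27.4 in Morrbid-/- and 222 ± 28.5 in wild type without it. Pdia6 averaged 200.3 ± 17.7 in Morrbid-/- and 213 ± 25.3 in wild type with IFN-beta. Without it Pdia6 had 183, 162 and 127 normalized counts in Morrbid-/-, against 160.0, 133 and 131 in wild type. The groups of both genes overlapped in both settings. Herpud1, a membrane protein of ER-associated degradation, averaged 43.1 ± 4.54 normalized counts in Morrbid-/- and 37.3 ± 9.36 in wild type with IFN-beta, and 44.8 ± 4.04 in Morrbid-/- and 40.6 ± 6.01 in wild type without it. Edem1, which sends misfolded glycoproteins to degradation, averaged 1279 ± 86.0 in Morrbid-/- and 1348 ± 66.3 in wild type with IFN-beta, and 318 ± 23.6 in Morrbid-/- and 351 ± 29.2 in wild type without it. Sdf2l1, a partner of BiP, was tested without IFN-beta only, at a log2 difference of -0.001 (SE 0.39), and averaged 7.73 ± 3.51 in Morrbid-/- and 8.72 ± 1.95 in wild type with IFN-beta.

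Of the cytosolic chaperones, Hsp90ab1 rose and Chordc1 fell in libraries labelled Morrbid-/- with IFN-beta. That is 18.2% of the 11 tested, where 10.1% of all genes passed with IFN-beta. Without it 0 of 9 members tested passed, where 0.635% of all genes did. The 11 tested with IFN-beta had a median log2 difference of 0.105, against 0.0015 over all genes, with 8 above 0 and 3 below. No test was made of whether they stand apart from other genes.

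Hsp90ab1 encodes the constitutive cytosolic HSP90beta, which matures kinases and receptors. With IFN-beta it had 7076, 7751, 7154 and 8027 normalized counts in libraries labelled Morrbid-/-, against 5526, 5929, 5436 and 5557 in those labelled wild type. All 4 libraries labelled Morrbid-/- lay above all 4 labelled wild type. Means were 7502 ± 462 in Morrbid-/- and 5612 ± 217 in wild type (SD, n = 4 each), and the log2 difference was 0.42, with an SE of 0.05 (adjusted p = 1.8e-05 by limma). Without IFN-beta, Hsp90ab1 had 3112, 2873 and 2809 normalized counts in Morrbid-/-, against 3234, 2331 and 2962 in wild type. Those groups overlapped, with wild-type replicate 2 the lowest, at a difference of 0.06 on the log2 scale (SE 0.11, limma adjusted p = 0.975).

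Hsp90aa1 encodes the inducible HSP90alpha. With IFN-beta it had 1910 normalized counts in replicate 1, 1713 in replicate 2, 1676 in replicate 3 and 1802 in replicate 4 of Morrbid-/-, against 1830.1, 1581, 1644 and 1552 in wild type. Without IFN-beta it had 2102, 1786 and 1537 in Morrbid-/-, against 2329, 1704 and 1645 in wild type. The groups overlapped in both settings, and log2 differences were 0.105 (SE 0.06, limma adjusted p = 0.334) with IFN-beta and -0.06 (SE 0.13) without it. Of all 75-base stretches of the Hsp90aa1 transcript, 53.1% are shared with other annotated transcripts, against 0.736% for Hsp90ab1, so counts of Hsp90aa1 are the less certain.

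Chordc1 encodes CHP1, an HSP90 cochaperone that is itself a heat shock gene. With IFN-beta it had 805, 739.6, 846 and 835 normalized counts in libraries labelled Morrbid-/-, against 1119.8, 1016, 1085 and 879 in those labelled wild type. The groups did not overlap, though wild-type replicate 4 lay close to the Morrbid-/- libraries. Means were 806 ± 47.6 in Morrbid-/- and 1025 ± 107 in wild type (SD, n = 4 each), and the log2 difference was -0.34, with an SE of 0.07 (adjusted p = 0.00416 by limma). Without IFN-beta, Chordc1 had 262, 246 and 225 normalized counts in Morrbid-/-, against 282, 251 and 201 in wild type. The annotated span of Chordc1 overlaps Gm51667 by 999 bases and Gm19178 by 1860 bases. Without IFN-beta the groups overlapped at a difference of 0.01 on the log2 scale (SE 0.12, limma adjusted p = 0.994).

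The Chordc1 start region is shown because the gene fell while holding the most heat shock element pairs of the members searched. It spans 250 bases before the start to 50 after it (RefSeq, GRCm38.p6, chr9:18292017-18292316, plus strand), and the capitals mark 5 matches to GAANNTTC or TTCNNGAA, where matches to the pair of spellings can overlap.
Chordc1: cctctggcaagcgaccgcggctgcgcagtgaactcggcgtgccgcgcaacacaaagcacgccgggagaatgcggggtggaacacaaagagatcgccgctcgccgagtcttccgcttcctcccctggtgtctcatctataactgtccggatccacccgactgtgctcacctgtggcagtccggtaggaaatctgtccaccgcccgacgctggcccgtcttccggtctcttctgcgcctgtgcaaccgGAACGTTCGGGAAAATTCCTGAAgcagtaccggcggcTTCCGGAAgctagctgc
Such a pair, part of the repeat that HSF1 binds, was found in 11 of the 33 members and in 17.0% of 27025 genes. The 11 were Atf5, Eif2ak3, Asns, Hsph1, Hspa1a, Hspa1b, Dnaja1, Chordc1, Bag3, Hspd1 and Hspe1. Hsp90ab1, Hsp90aa1, Hspa8, Hsf1, Atf6 and Ppp1r15b had no region on hand, so they were not searched for any of these elements.

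Hspa8 encodes HSC70, the constitutive cytosolic HSP70. Without IFN-beta it had 6065, 5647 and 4986 normalized counts in libraries labelled Morrbid-/-, against 6344, 5423 and 5412 in those labelled wild type. With IFN-beta it had 12358, 12976, 12732 and 12954 normalized counts in Morrbid-/-, against 14188, 13500.2, 12550 and 12885 in wild type. The groups overlapped in both settings, with log2 differences of -0.04 (SE 0.12) without IFN-beta and -0.06 (SE 0.05, limma adjusted p = 0.552) with it. Of its 75-base stretches 68.6% are shared with transcripts of 11 other genes, so its counts are uncertain.

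Hsf1, the heat shock transcription factor, had 59.8, 58.9 and 60.4 normalized counts without IFN-beta in libraries labelled Morrbid-/-, against 68.8, 73.9 and 59.6 in those labelled wild type. With IFN-beta it had 105, 120.1, 114 and 117 normalized counts in Morrbid-/-, against 93.2, 93.2, 93.4 and 115 in wild type. The groups overlapped in both settings, with IFN-beta through wild-type replicate 4 alone. The log2 difference with IFN-beta was 0.21 and did not pass (SE 0.12, limma adjusted p = 0.313), and without it was -0.17 (SE 0.17). HSF1 is activated by trimer formation and phosphorylation, which RNA counts do not measure.

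Hspa4 and Hsph1 encode HSP110 proteins, which release ADP from HSP70. Hspa4 had 1272, 1409, 1230.2 and 1336 normalized counts with IFN-beta in libraries labelled Morrbid-/-, against 1201, 1192, 1143 and 1223 in those labelled wild type. The groups did not overlap, with the lowest Morrbid-/- library at 1230.2 and the highest wild-type library at 1223, and the log2 difference of 0.14 did not pass (SE 0.06, limma adjusted p = 0.163). Hsph1 averaged 1638 ± 136 in Morrbid-/- and 1658 ± 211 in wild type with IFN-beta, and 486 ± 19.3 in Morrbid-/- and 435 ± 38.6 in wild type without it.

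The HSP40 genes Dnaja1 and Dnajb1, whose proteins hand clients to HSP70, did not pass in either setting. Dnaja1 averaged 959.6 ± 34.6 normalized counts in Morrbid-/- and 934 ± 90.5 in wild type with IFN-beta, and 353 ± 18.8 in Morrbid-/- and 373 ± 47.3 in wild type without it. Dnajb1 averaged 397 ± 42.2 normalized counts in Morrbid-/- and 377 ± 38.0 in wild type with IFN-beta, and 81.3 ± 8.60 in Morrbid-/- and 86.8 ± 7.66 in wild type without it. Hspa1b, Hspa1a and Bag3 were low. Hspa1b, an inducible HSP70, averaged 22.1 ± 6.42 in Morrbid-/- and 15.4 ± 4.35 in wild type with IFN-beta, and 1.55 ± 1.37 in Morrbid-/- and 4.11 ± 2.02 in wild type without it. Hspa1a, its near copy, averaged 7.98 ± 2.42 in Morrbid-/- and 8.64 ± 5.04 in wild type with IFN-beta, and 61.7% of its 75-base stretches are shared, so reads of the pair may be split between them. Bag3, which releases HSP70 clients to autophagy, averaged 22.1 ± 4.11 in Morrbid-/- and 16.6 ± 3.25 in wild type with IFN-beta, a log2 difference of 0.40 (SE 0.27) that did not pass, and 3.83 ± 2.18 in Morrbid-/- and 6.49 ± 3.67 in wild type without it.

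The mitochondrial chaperonin genes Hspd1 (HSP60) and Hspe1 (HSP10) lie head to head, and their spans share 96 bases. Hspe1 had 60.8, 69.4 and 55.3 normalized counts without IFN-beta in libraries labelled Morrbid-/-, against 75.1, 79.1 and 78.0 in those labelled wild type. These groups did not overlap, but the log2 difference of -0.32 did not pass (SE 0.17, limma adjusted p = 0.822), and 29.1% of the 75-base stretches of Hspe1 are shared with other transcripts. With IFN-beta Hspe1 averaged 126 ± 11.8 in Morrbid-/- and 126 ± 14.7 in wild type. Hspd1 averaged 504 ± 46.6 in Morrbid-/- and 501 ± 73.0 in wild type without IFN-beta, and 525 ± 34.9 in Morrbid-/- and 539 ± 53.2 in wild type with it.

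Levels were compared between members as normalized counts per kilobase of exon, merged over all annotated transcripts, within a table. For Hspa8 the merged length is 4301 bases and its longest coding transcript 2394, so the order depends on the annotation. Counts of Hspa8 and Hsp90aa1 are also uncertain, with 68.6% and 53.1% of their 75-base stretches shared with other transcripts. With IFN-beta Hspa8 led at 2966 in Morrbid-/- and 3088 in wild type, followed by Hsp90ab1 at 2501 in Morrbid-/- and 1871 in wild type. Calr came next at 1685 in Morrbid-/- and 1505 in wild type, then Hspa5 at 1476 in Morrbid-/- and 1482 in wild type. In wild type the levels of Calr and Hspa5 lay closer together than the spread of Hspa5 between libraries. Without IFN-beta Hspa8 also led, at 1294 in Morrbid-/- and 1331 in wild type, ahead of Hsp90ab1 at 977 in Morrbid-/- and 948 in wild type. Hspa5 there held 360.1 in Morrbid-/- and 337 in wild type, below Hsp90aa1 at 460.1 in Morrbid-/- and 481 in wild type. Levels with and without IFN-beta were not tested against each other, since the tables were normalized separately.

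Libraries without IFN-beta differed among themselves in the members as a whole. Morrbid-/- replicate 1 was the highest of its 3 libraries in 19 of the 32 members tested, and wild-type replicate 1 was the highest of its 3 in 23 of 32. The cytosolic chaperones summed to 13380.5, 12358 and 11366 normalized counts in libraries labelled Morrbid-/-, against 14121, 11274 and 12097 in those labelled wild type. Mitochondrial 16S rRNA took 18.9%, 12.8% and 11.6% of reads in Morrbid-/-, against 18.1%, 16.01% and 12.5% in wild type. Replicate 1 was thus high in both measures in both genotypes. Wild-type replicate 2, with a 16S share of 16.01%, had the lowest cytosolic sum, 11274. The part of the 16S share in the members' values was not tested. With IFN-beta the 16S share was 9.84%, 9.05%, 9.43% and 10.5% in Morrbid-/-, against 12.01%, 10.01%, 9.45% and 10.6% in wild type. The 12S rRNA share with IFN-beta was 0.214%, 0.326%, 0.259% and 0.462% in Morrbid-/-, against 0.152%, 0.142%, 0.142% and 0.256% in wild type. The groups overlapped through wild-type replicate 4. Without IFN-beta the 12S share was 0.702%, 0.798% and 0.644% in Morrbid-/-, against 0.729%, 0.659% and 0.779% in wild type.

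**Figure D3:**
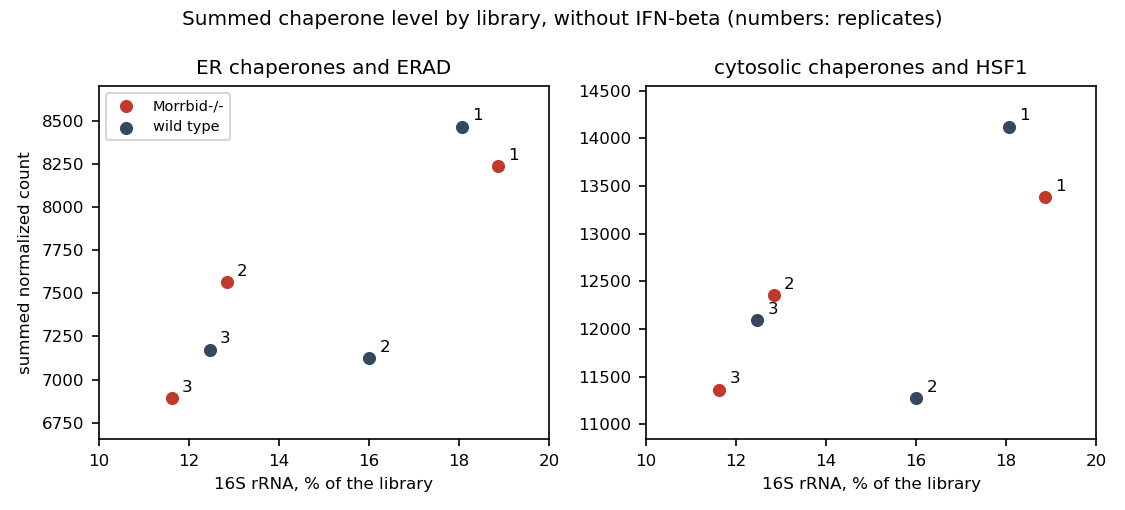
Summed normalized counts of the ER chaperones and degradation factors (left) and of the cytosolic chaperones with HSF1 (right) against the percentage of reads in mitochondrial 16S rRNA, for the 6 libraries without IFN-beta, numbered by replicate. Replicate 1 of both genotypes is at the upper right, at 18.9% in Morrbid-/- and 18.1% in wild type. Wild-type replicate 2, at 16.01%, has the lowest cytosolic sum, 11274.

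Whether the genotype difference itself changed with IFN-beta was tested for 31 members, and 0 passed (limma), where 1.33% of all 9078 genes tested passed (0.441% higher and 0.892% lower). The edgeR and DESeq2 tests also called 0 members, and 6 had an unadjusted p under 0.05. The smallest adjusted p belonged to Hsp90ab1, whose log2 difference between genotypes was larger by 0.36 with IFN-beta (SE 0.12, limma adjusted p = 0.178). Ddit3 had the largest change, 1.17 (SE 0.41, limma adjusted p = 0.187), its difference being below 0 without IFN-beta and above 0 with it. The others were Chordc1 at -0.35, Atf4 at 0.36, Ppp1r15a at 0.43 and Eif2ak3 at 0.40. When wild-type replicate 2 without IFN-beta was left out, Hsp90ab1 passed at 0.50 (limma adjusted p = 0.0121) and Ppp1r15a at 0.64 (limma adjusted p = 0.0317). So the passes of these members with IFN-beta, and their absence without it, do not by themselves show that the settings differ. The settings also differed in depth, in number of libraries and in mitochondrial rRNA share. A change with IFN-beta, here or in the further genes below, therefore cannot be told apart from a difference between the sets of libraries.

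Beyond the members, 184 further genes of the same pathways were followed in 12 lists, with Hsbp1 in 2 of them and counted once here. Without IFN-beta 1 of the 160 tested rose and 0 fell (0.625%, against 0.635% of all genes). With IFN-beta 6 of 162 rose and 8 fell (8.64%, against 10.1% of all genes), so neither share stood above the background.

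The HSP90 cochaperone list holds partners of Hsp90ab1, along with Hsf2 and Hsbp1, which are not cochaperones. With IFN-beta 3 of its 15 genes were higher and 0 lower in libraries labelled Morrbid-/-, where 5.25% of all genes were higher. The list had a median log2 difference of 0.109. Stip1, which bridges HSP70 and HSP90, averaged 657 ± 75.9 normalized counts in Morrbid-/- and 479 ± 61.3 in wild type (SD, n = 4 each), and the log2 difference was 0.46, with an SE of 0.09 (adjusted p = 0.00179 by limma). Unc45a, a myosin-directed cochaperone, averaged 409 ± 12.04 in Morrbid-/- and 312 ± 17.96 in wild type, a difference of 0.39 on the log2 scale (SE 0.08, limma adjusted p = 0.00218). Ahsa1, which stimulates the HSP90 ATPase, averaged 292 ± 23.7 in Morrbid-/- and 232 ± 36.4 in wild type, a difference of 0.34 on the log2 scale (SE 0.11, limma adjusted p = 0.043), and passed in only 3 of 8 fits that left out a library. In the same setting 0 of 14 genes of the CCT chaperonin, which folds actin and tubulin, and of prefoldin were higher and 4 were lower, at a median of -0.104, where 4.84% of all genes were lower. No test was made of whether either list stands apart from other genes. Cct7 (log2 difference -0.32, limma adjusted p = 0.00215), Cct4 (-0.32, 0.00717), Cct6a (-0.23, 0.0233) and Tcp1 (-0.21, 0.0297) fell. Cct6a and Tcp1 did not pass with libraries scaled to equal totals, and of 8 fits that left out a library Cct6a passed in 5 and Tcp1 in 3.

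**Figure D4:**
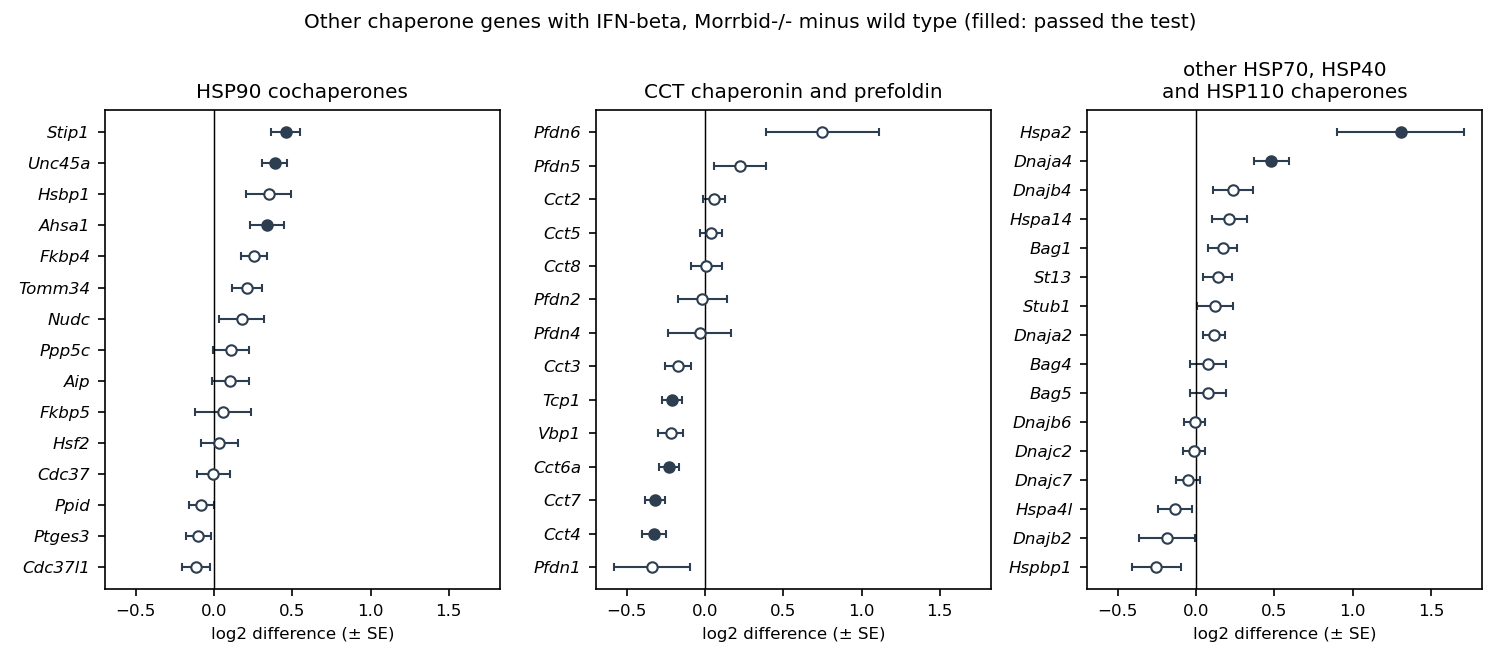
Log2 difference, Morrbid-/- minus wild type, with its SE, of other chaperone genes with IFN-beta. Filled points passed. Stip1, Unc45a and Ahsa1 lay above 0 among 15 genes of the HSP90 cochaperone list, which includes Hsf2 and Hsbp1. Cct7, Cct4, Cct6a and Tcp1 lay below 0 among 14 genes of the CCT chaperonin and prefoldin. Hspa2 and Dnaja4 lay above 0 among 16 genes of the list of other HSP70, HSP40 and HSP110 chaperones, which includes cochaperones such as Bag1.

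In the other lists with IFN-beta, Syvn1, the ubiquitin ligase of ER-associated degradation, averaged 277 ± 22.1 in Morrbid-/- and 199 ± 11.1 in wild type (log2 difference 0.47, limma adjusted p = 0.00173). Dnaja4, an HSP40 gene, averaged 169 ± 12.2 in Morrbid-/- and 121 ± 10.5 in wild type (log2 difference 0.48, limma adjusted p = 0.00596). Hspa2, an HSP70 gene, averaged 20.3 ± 6.84 in Morrbid-/- and 8.34 ± 4.53 in wild type (log2 difference 1.31, limma adjusted p = 0.0403). The eIF2 subunits Eif2s3x (log2 difference -0.36, limma adjusted p = 0.0041) and Eif2s1 (-0.25, 0.0309), the translocon-associated Ssr3 (-0.29, 0.0120) and the mitochondrial protease Yme1l1 (-0.21, 0.0462) fell. Hspa2 lost its call without Morrbid-/- replicate 1, 2 or 4 or wild-type replicate 3 or 4, and Yme1l1 and Eif2s1 did not pass with libraries scaled to equal totals. Of 8 fits that left out a library, Yme1l1 passed in 2, Eif2s1 in 4 and Ssr3 in 7. Of the other ATF4 targets, 0 of 11 genes tested for amino acid synthesis and transport, 0 of 13 aminoacyl-tRNA synthetase genes and 0 of 4 regulators passed with IFN-beta. Over all genes 10.1% passed there.

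Without IFN-beta the gene that rose was Wars, a tryptophanyl-tRNA synthetase that interferon also induces, at 168 ± 8.92 normalized counts in Morrbid-/- and 110.0 ± 5.40 in wild type (SD, n = 3 each), and the log2 difference was 0.61, with an SE of 0.13 (adjusted p = 0.0155 by limma). It passed in 2 of 6 fits that left out a library. With IFN-beta Wars averaged 1569 ± 44.6 in Morrbid-/- and 1567 ± 124 in wild type. For the change of the difference with IFN-beta, 0 of 159 genes in these lists were higher and 3 were lower (1.89%, against 1.33% of all genes and 0.892% lower), namely Wars at -0.60 (limma adjusted p = 0.00217), Derl1, a channel of ER-associated degradation, at -0.79 (0.0055) and Eif2ak2, which encodes the interferon-induced eIF2alpha kinase PKR, at -0.37 (0.0394). Lower here means that the log2 difference, Morrbid-/- minus wild type, was smaller with IFN-beta than without it. For Wars it was 0.61 without IFN-beta and 0.0049 with it. For Derl1 it was 0.52 without IFN-beta and -0.26 with it, and for Eif2ak2 0.31 and -0.06. Derl1 and Eif2ak2 did not pass between genotypes in either setting. Of 14 fits that left out a library, Eif2ak2 passed in 3, while Wars and Derl1 passed in all 14. Eif2ak2 did not pass by edgeR or DESeq2 or with equal totals.

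Among markers of other T cells, Ctla4 rose in libraries labelled Morrbid-/- with IFN-beta, at 154 ± 30.6 normalized counts against 79.7 ± 4.75 in wild type (log2 difference 0.93, limma adjusted p = 8.0e-05), while the regulatory T cell factor Foxp3 averaged 6.84 ± 1.93 in Morrbid-/- and 4.57 ± 2.76 in wild type. With IFN-beta 3 of the 5 genes listed for CD4 and regulatory T cells were analysed, Foxp3, Ctla4 and Il2ra, and they summed to 96.8 to 148 RPM in Morrbid-/- and 113 to 147 RPM in wild type. Most of that sum was Il2ra, which activated CD8 T cells also express, at 653 ± 126 normalized counts in Morrbid-/- and 766 ± 106 in wild type. The NK cell genes analysed were 4 of 4 without IFN-beta and 2 of 4 with it. They summed to 194 to 217 RPM in Morrbid-/- and 224 to 254 RPM in wild type without IFN-beta. With it they summed to 78.5 to 104 RPM in Morrbid-/- and 90.9 to 112 RPM in wild type. Without IFN-beta, Klra8 and Ncr1 had 0 counts in each library. Klrb1c also had 0 in Morrbid-/- replicates 2 and 3 and wild-type replicates 1 and 2, so the sum there was Klrd1 alone. The 1 gene of this list that was tested did not pass, at log2 differences of -0.27 without IFN-beta and -0.15 with it. Activated CD8 T cells also express Ctla4, and the part of these markers in the members' differences was not tested.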

How the data were processed

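Per the labels, the authors deposited one table of normalized counts for each setting, read counts per gene divided by a size factor per library (treated as a signal, not as raw counts). Tools that the submitters' processing notes list are Trimmomatic, STAR 2.5, featureCounts and DESeq2, with builds GRCm38 and mm10. The strand setting is not given in the sources used here. From the deposited signal, whole reads were recovered (100% of values within 0.01 of a whole number). Within each table limma 3.58.1 (R 4.3.3) tested log2(normalized count + 1), with a trend of variance on level, for genes averaging 10 or more, adjusted by Benjamini-Hochberg over all genes tested, at a threshold of 0.05. That scale understates changes of low genes. An interaction contrast in one fit of 14 libraries tested the change of the genotype difference with IFN-beta. Recovered reads were tested with edgeR 4.0.16 and DESeq2 1.42.0. Other alternatives were pseudocounts of 0.5 and 5, no filter, a minimum mean of 50, equal totals, no trend, a replicate block and leaving out each library. The fits were tested on simulated data. The 39 members and all lists were chosen with earlier results of these data known. Every member is named, and up to 4 passing genes per further list in order of adjusted p. Members that passed were given by each library's value, as were Ddit3, Xbp1, Hspa5, Hspa8, Hsp90aa1 and Hsf1 whatever their result. Library values of Calr, Pdia6, Hspa4, Hspe1, Trib3, Asns and Chac1 and the choice of start regions followed sight of the results. Start regions and coordinates came from RefSeq (GRCm38.p6). Floors cover counting error only, since PCR copies are not separate molecules.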

Additional observations from a re-analysis of the deposited data

Results flagged for a closer look

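In the 4-library groups with IFN-beta, 68 groups of the members tested were screened for a library far from the rest of its group, and 4 stood out. Chance flags about 1 in 20 groups, so 4 of 68 is near the number chance gives. Morrbid-/- replicate 1 was the lowest in Atf5, at 9.16 normalized counts, where the others of its group held 13.5 to 13.7. Morrbid-/- replicate 3 was the lowest in Eif2ak4, at 148, where the others held 157 to 158. Wild-type replicate 4 was the highest in Pdia4, at 336 against 274 to 279 in the other wild-type libraries, and in Hsf1, at 115 against 93.2 to 93.4.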

How the results depend on the processing

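Of the recomputed values of single genes, 1376 kept their direction and side of the threshold, 71 lost a call, 5 gained one and 67 turned sign. With IFN-beta, Ppp1r15a and Hsp90ab1 passed in 17 of 17 alternatives, Chordc1 in 16 (not without the trend, adjusted p = 0.0918) and Atf4 in 13. Without the trend, 2 members passed with IFN-beta. Over all genes the calls were then 17 without IFN-beta, 305 with IFN-beta and 66 for the change between settings. Leaving out one library gave 39 to 74 genes without IFN-beta and 0 members in each case, 609 to 1021 genes and 3 to 4 members with IFN-beta (609 without Morrbid-/- replicate 2), and 97 to 143 genes and 0 to 2 members for the change. Replicate numbers were not taken to pair libraries, since the labels do not say that they do. Same-numbered Morrbid-/- and wild-type libraries correlated at 0.378, -0.0235 and 0.301 without IFN-beta and at 0.0708, 0.0298, 0.127 and 0.242 with it. Differently numbered ones correlated at -0.361 to 0.0825 without IFN-beta and at -0.165 to 0.0848 with it. With a replicate block, 169 genes passed without IFN-beta, and 1421 genes, Calr among them, passed with it. Without the block 59 and 1005 genes passed. For the change, 311 genes and 1 member passed with the block, against 121 genes and 0 members without it. Whether same-numbered libraries share a batch was not tested.

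Signs turned without IFN-beta under equal totals for Ppp1r15b (0.018), Atf6 (0.015), Sdf2l1 (0.048) and Hspa8 (0.0095), and for Sdf2l1 with a pseudocount of 0.5 (0.0010). With IFN-beta they turned under equal totals for Ern1 (0.025), Hspa5 (0.037), Dnajb9 (0.026), Hsph1 (0.028), Hspd1 (0.0065) and Hspe1 (0.039), and for Atf6 by edgeR (-0.062) and DESeq2 (-0.060). When one library was left out, log2 differences without IFN-beta spanned 0 for Atf4 (-0.20 to 0.097), Atf3 (-0.0058 to 0.89), Ppp1r15a (-0.035 to 0.29), Ppp1r15b (-0.081 to 0.033), Atf6 (-0.096 to 0.083), Hsp90b1 (-0.12 to 0.041), Pdia4 (-0.034 to 0.16), Calr (-0.072 to 0.093), Canx (-0.050 to 0.10), Sdf2l1 (-0.28 to 0.16), Hsp90aa1 (-0.17 to 0.099), Hsp90ab1 (-0.080 to 0.16), Hspa8 (-0.11 to 0.035), Hspa4 (-0.088 to 0.12), Chordc1 (-0.12 to 0.12) and Hspd1 (-0.11 to 0.095). With IFN-beta they spanned 0 for Atf6 (-0.14 to 0.27), Ern1 (-0.12 to 0.095), Hspa5 (-0.050 to 0.044), Dnajb9 (-0.073 to 0.031), Hsph1 (-0.11 to 0.047), Dnaja1 (-0.0072 to 0.10), Hspd1 (-0.088 to 0.026) and Hspe1 (-0.086 to 0.048). The cause of these changes was not tested. Depth limits the members under a mean of 10 normalized counts, 7 without IFN-beta and 5 with it.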
